A study of Schizosaccharomyces pombe with 9 samples.

Results

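The genes described here encode the fission yeast transcription factor complex MBF and a set of its G1/S targets. They are 10 of the 6988 features in the deposited count table and were taken by name and systematic identifier: cdc10 (SPBC336.12c), res1 (SPBC725.16), res2 (SPAC22F3.09c), nrm1 (SPBC16A3.07c), yox1 (SPBC21B10.13c), cdc18 (SPBC14C8.07c), cdt1 (SPBC428.18), cdc22 (SPAC1F7.05), cig2 (SPAPB2B4.03) and mik1 (SPBC660.14). All 10 passed the filter on low counts. Poly(A)+ RNA of Schizosaccharomyces pombe was sequenced in 9 libraries, 3 biological replicates from each of 3 haploid h- strains, all in vegetative log-phase growth at 30 °C in the rich medium YES. The series concerns Rsm1 and Nup211, which belong to the basket on the nuclear face of the pore. The groups were the WT strain Sp1, strain ASY240 labelled rsm1∆::natMX (a deletion of rsm1), and strain IAP105 labelled nup211-1435* asp1-WT::kanMX, whose wild-type asp1 gene carries a drug marker. Each genotype was 1 strain, and a marker cassette was present only in the mutants, so effects of the marker and of the mutation cannot be told apart.

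MBF binds MluI cell cycle box elements in the promoters of genes needed for DNA replication and drives their transcription at the G1/S transition. Cdc10 is the common subunit, Res1 and Res2 carry the DNA-binding domains, and Nrm1 and Yox1 are repressors that are themselves made under MBF control and switch the wave off as S phase proceeds. The target genes studied most in fission yeast load the replicative helicase (cdc18, cdt1), make deoxyribonucleotides (cdc22) or set the activity of the cyclin-dependent kinase Cdc2 (cig2, mik1).

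Depth was 20984220 to 28105939 counts per library. The first principal component of log2 CPM (read counts scaled to a common library total, with TMM factors between libraries) held 63.5% of the variance and separated WT from the mutants, and the second held 25.4% and separated the mutants from each other. Counts of rsm1 were still present in the libraries labelled as its deletion, at 31.8 ± 1.25 CPM (SD, n = 3) against 36.7 ± 0.398 CPM in WT. Of the rsm1 exon sequence, 99.8% is overlapped by annotated features on the opposite strand, and whether the authors counted by strand is not given in the sources used here. The coding part of rsm1 is 891 nt of its 2575 nt of exon, and the label does not give how much was removed. These counts therefore do not check the label. The group is named by its label below. Transcripts of nup211 stood at 180.0 ± 10.5 CPM in WT, 249 ± 16.7 CPM in the libraries labelled rsm1∆ and 267 ± 8.23 CPM in nup211-1435*, which does not check that allele. asp1, the gene marked in nup211-1435*, was at 131 ± 2.28, 149 ± 5.405 and 199 ± 2.13 CPM in the same order, and it rose by 0.60 on the log2 scale in nup211-1435* (SE 0.03, edgeR adjusted p = 6.3e-10) and by 0.19 in the other mutant (SE 0.03, edgeR adjusted p = 0.00013). The part of asp1 in the results on nup211-1435* was not tested.

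In the libraries labelled rsm1∆, transcripts of all 3 MBF subunits, cdc18 and cig2 rose against WT, and those of nrm1, cdc22 and mik1 fell. That made 8 of 10 genes called (5 higher, 3 lower) at an adjusted p under 0.05 in edgeR's quasi-likelihood test, adjusted over all 6227 features tested. In that comparison 70.7% of all features were called, 36.7% higher and 34.1% lower, so the share among these genes was near the background. In nup211-1435* against WT, the 3 subunits and cig2 rose and nrm1, cdc22 and mik1 fell, which made 7 of 10 (4 higher, 3 lower) against a background of 64.9%, with 32.9% higher and 32.0% lower. The changes were small: none of the 10 reached 2-fold, whereas 7.53% and 6.38% of all features were called with at least a 2-fold change in the respective mutant. The median log2 fold change of the 10 genes was 0.17 in the libraries labelled rsm1∆ and 0.03 in nup211-1435*, beside 0.01 over all features in each. Both comparisons share the WT libraries, so a direction common to both is not independent evidence. In bulk RNA, fewer cells in a cell cycle phase and less RNA per cell cannot be told apart. Scaling by total counts alone moved the median of all features to 0.16 and 0.14 in the respective mutant against WT, and the directions given here are relative to most other features.

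**Figure D1:**
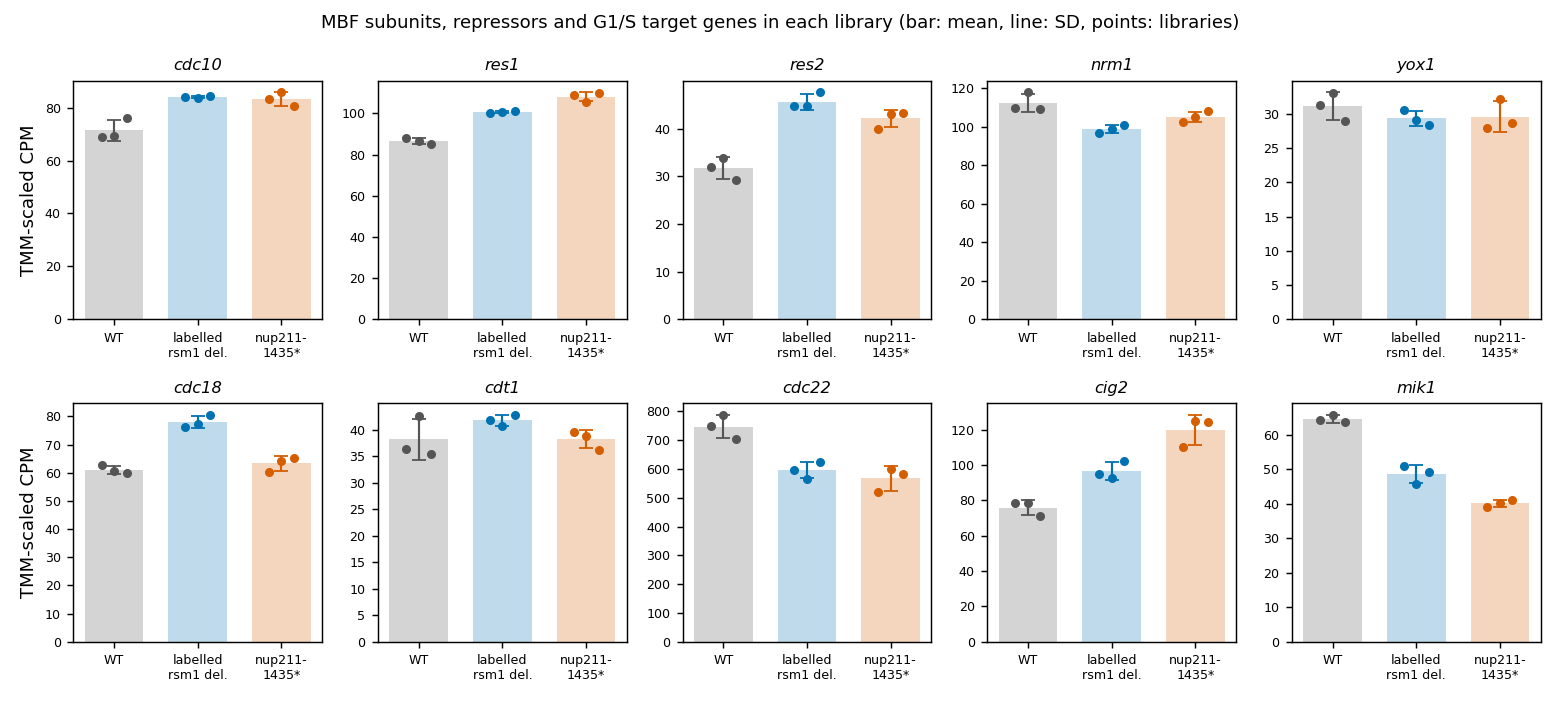
TMM-scaled CPM (vertical axes, each from 0) of the 10 genes in the 9 libraries, with bars for the mean, lines for the SD and points for the libraries of WT, labelled rsm1∆ and nup211-1435*. The mik1 and cdc22 points of both mutants lie below all WT points, the cig2 and res2 points of both lie above them, and the yox1 and cdt1 points of WT overlap those of each mutant.

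The gene for the common subunit, cdc10, had 69.0, 69.1 and 75.9 CPM in WT, 83.9, 83.8 and 84.3 CPM in the libraries labelled rsm1∆, and 83.3, 85.7 and 80.7 CPM in nup211-1435*. Every mutant library was above every WT library, and the mutants overlapped each other. The log2 fold change was 0.23 (SE 0.04, edgeR adjusted p = 0.000132) in the libraries labelled rsm1∆ and 0.22 (SE 0.04, edgeR adjusted p = 0.000255) in nup211-1435*. The exon of cdc10 shares 471 nt, or 15.4% of its length, with vps52 on the opposite strand. vps52, a subunit gene of a vesicle tethering complex, moved the other way, with log2 fold changes of -0.12 and -0.24 in the same order (chosen for its position after its values were seen).

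The res1 transcript, for the DNA-binding subunit that acts mainly in the mitotic cycle, stood at 88.2, 86.7 and 85.3 CPM in WT. It was at 100.2, 101 and 101 CPM in the libraries labelled rsm1∆, and at 109, 106 and 109.7 CPM in nup211-1435*. The 3 groups did not overlap, and WT was lowest. The rise was 0.22 (log2, SE 0.03, edgeR adjusted p = 2.48e-05) in the first mutant and 0.32 (log2, SE 0.03, edgeR adjusted p = 4.89e-07) in the second.

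The res2 transcript encodes the related DNA-binding subunit, which is also needed in meiosis. Its level was 31.9, 33.8 and 29.2 CPM in WT, 44.7, 44.6 and 47.6 CPM in the libraries labelled rsm1∆, and 40.0, 43.1 and 43.3 CPM in nup211-1435*. All 6 mutant libraries lay above WT. The libraries labelled rsm1∆ lay above nup211-1435* without overlap, but that difference was not called (log2 fold change -0.11, edgeR adjusted p = 0.106). The rise of res2 against WT was the largest fold change among the 10 genes in the libraries labelled rsm1∆, at 44.0% (log2 fold change 0.53, SE 0.06, edgeR adjusted p = 9.45e-07). In nup211-1435* the rise was 33.1% (log2 fold change 0.41, SE 0.06, edgeR adjusted p = 1.59e-05). Per kilobase of annotated exon the ratio of res1 to res2 was 2.37 ± 0.155 in WT, 1.91 ± 0.0597 in the libraries labelled rsm1∆ and 2.22 ± 0.119 in nup211-1435* (SD, n = 3, a description without a test).

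The repressor genes did not rise with the subunits. The co-repressor gene nrm1 had 109.9, 118 and 109.5 CPM in WT, 96.9, 98.7 and 101 CPM in the libraries labelled rsm1∆, and 103, 105 and 108 CPM in nup211-1435*. Each mutant's libraries were below those of WT, in nup211-1435* by a narrow gap. In the libraries labelled rsm1∆ nrm1 fell by 0.19 on the log2 scale (SE 0.04, edgeR adjusted p = 0.000427), and with total-count scaling the value was -0.04 (edgeR adjusted p = 0.345). In nup211-1435* the log2 fold change was -0.09 (SE 0.04, edgeR adjusted p = 0.0368), and it turned to 0.04 (edgeR adjusted p = 0.388) with total-count scaling. That call was lost in edgeR without WT replicate 2 (adjusted p = 0.185), without labelled rsm1∆ replicate 2 (adjusted p = 0.0505), and without nup211-1435* replicate 1 (adjusted p = 0.118) or replicate 2 (adjusted p = 0.089). It was also absent from the authors' deposited table, which gives a log2 fold change of -0.09 (SE 0.05) and an adjusted p of 0.0886. The other 9 genes, and nrm1 in the libraries labelled rsm1∆, had the same call in the authors' deposited tables as here.

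The homeodomain repressor gene yox1 had 31.4, 33.0 and 29.0 CPM in WT, 30.6, 29.1 and 28.4 CPM in the libraries labelled rsm1∆, and 27.9, 32.2 and 28.7 CPM in nup211-1435*. The 3 groups overlapped. The log2 fold change was -0.08 (95% interval -0.22 to 0.06, edgeR adjusted p = 0.28) in the libraries labelled rsm1∆, and with total-count scaling it was 0.06. In nup211-1435* it was -0.07 (95% interval -0.21 to 0.07, edgeR adjusted p = 0.34), likewise 0.06 with total-count scaling. Both intervals allow a fall as large as that of nrm1.

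The licensing genes differed in how they stood in the mutants. cdc18, whose product loads the MCM helicase on origins, had 62.6, 60.7 and 60.0 CPM in WT, 76.4, 77.5 and 80.6 CPM in the libraries labelled rsm1∆, and 60.4, 64.2 and 65.3 CPM in nup211-1435*. The libraries labelled rsm1∆ were above all others, whereas WT and nup211-1435* overlapped. The rise in the libraries labelled rsm1∆ was 27.9% (log2 fold change 0.35, SE 0.04, edgeR adjusted p = 1.53e-06). In nup211-1435* the log2 fold change was 0.05 (95% interval -0.04 to 0.14, edgeR adjusted p = 0.273), and with total-count scaling it was 0.19 and called (edgeR adjusted p = 0.0011).

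cdt1, the partner of Cdc18 in helicase loading, had 36.3, 42.7 and 35.5 CPM in WT, 41.8, 40.8 and 42.8 CPM in the libraries labelled rsm1∆, and 39.5, 38.9 and 36.2 CPM in nup211-1435*. WT replicate 2 was as high as the libraries labelled rsm1∆, so WT overlapped each mutant, whereas the mutants did not overlap each other. The difference between the mutants was not called (edgeR adjusted p = 0.108). Against WT the log2 fold change was 0.13 (95% interval -0.01 to 0.27, edgeR adjusted p = 0.0828) in the libraries labelled rsm1∆. Without WT replicate 2 it was 0.22 and called (edgeR adjusted p = 0.00235), and with total-count scaling it was 0.27 and called (edgeR adjusted p = 0.00142). In nup211-1435* it was 0.00 (95% interval -0.14 to 0.14, edgeR adjusted p = 0.987).

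The gene for the large subunit of ribonucleotide reductase, cdc22, fell in both mutants. Its values were 749.5, 787 and 706 CPM in WT, 597, 567 and 624 CPM in the libraries labelled rsm1∆, and 519.7, 600.4 and 583 CPM in nup211-1435*. All mutant libraries lay below WT, and the mutants overlapped each other. The fall was 0.33 on the log2 scale (SE 0.06, edgeR adjusted p = 0.000378) in the first mutant and 0.40 (SE 0.06, edgeR adjusted p = 0.000102) in the second. suc22, the small subunit gene of the enzyme (chosen for that role after its values were seen), had 427 ± 10.6 CPM in WT, 392 ± 2.66 CPM in the libraries labelled rsm1∆ and 388 ± 8.27 CPM in nup211-1435* (SD, n = 3). It fell by 0.12 (SE 0.03, edgeR adjusted p = 0.00186) and 0.14 (SE 0.03, edgeR adjusted p = 0.000749) on the log2 scale. Per kilobase of exon, the ratio of cdc22 to suc22 was 0.939 ± 0.0295 in WT, 0.814 ± 0.0383 in the libraries labelled rsm1∆ and 0.785 ± 0.0595 in nup211-1435* (SD, n = 3, not tested).

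The 2 genes that set Cdc2 activity moved in opposite directions. cig2, the main S-phase cyclin gene, had 78.2, 78.3 and 71.1 CPM in WT, 94.7, 92.7 and 102 CPM in the libraries labelled rsm1∆, and 109.9, 125 and 124 CPM in nup211-1435*. The groups did not overlap, with WT lowest and nup211-1435* highest. The rise was 27.2% in the libraries labelled rsm1∆ (log2 fold change 0.35, SE 0.06, edgeR adjusted p = 0.000143) and 58.1% in nup211-1435* (log2 fold change 0.66, SE 0.06, edgeR adjusted p = 4.18e-07).

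mik1 encodes a kinase that phosphorylates Cdc2 on its inhibitory tyrosine. It had 64.1, 65.8 and 63.5 CPM in WT, 50.8, 45.6 and 49.2 CPM in the libraries labelled rsm1∆, and 39.1, 40.1 and 41.2 CPM in nup211-1435*. The groups did not overlap, in the order WT, labelled rsm1∆, nup211-1435* from high to low. It fell by 24.7% (log2 fold change -0.41, SE 0.05, edgeR adjusted p = 1.09e-06) and by 37.8% (log2 fold change -0.68, SE 0.05, edgeR adjusted p = 5.5e-09), and the second value was the largest change among the 10 genes in either mutant.

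wee1, the other gene for a Cdc2 inhibitory tyrosine kinase and not one of the 10, moved against mik1. Its values were 88.3, 87.5 and 90.1 CPM in WT, 249, 250.3 and 237 CPM in the libraries labelled rsm1∆, and 137, 143 and 160.2 CPM in nup211-1435*. All mutant libraries exceeded WT. It rose by 1.47 on the log2 scale in the libraries labelled rsm1∆ (SE 0.05, edgeR adjusted p = 1.46e-11) and by 0.73 in nup211-1435* (SE 0.05, edgeR adjusted p = 1.55e-08). Per kilobase of exon, mik1 stood at 1.07 ± 0.0339 of wee1 in WT, 0.29 ± 0.0201 in the libraries labelled rsm1∆ and 0.402 ± 0.022 in nup211-1435* (SD, n = 3, not tested). No feature of the count table overlaps the annotated wee1 exon on either strand.

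**Figure D2:**
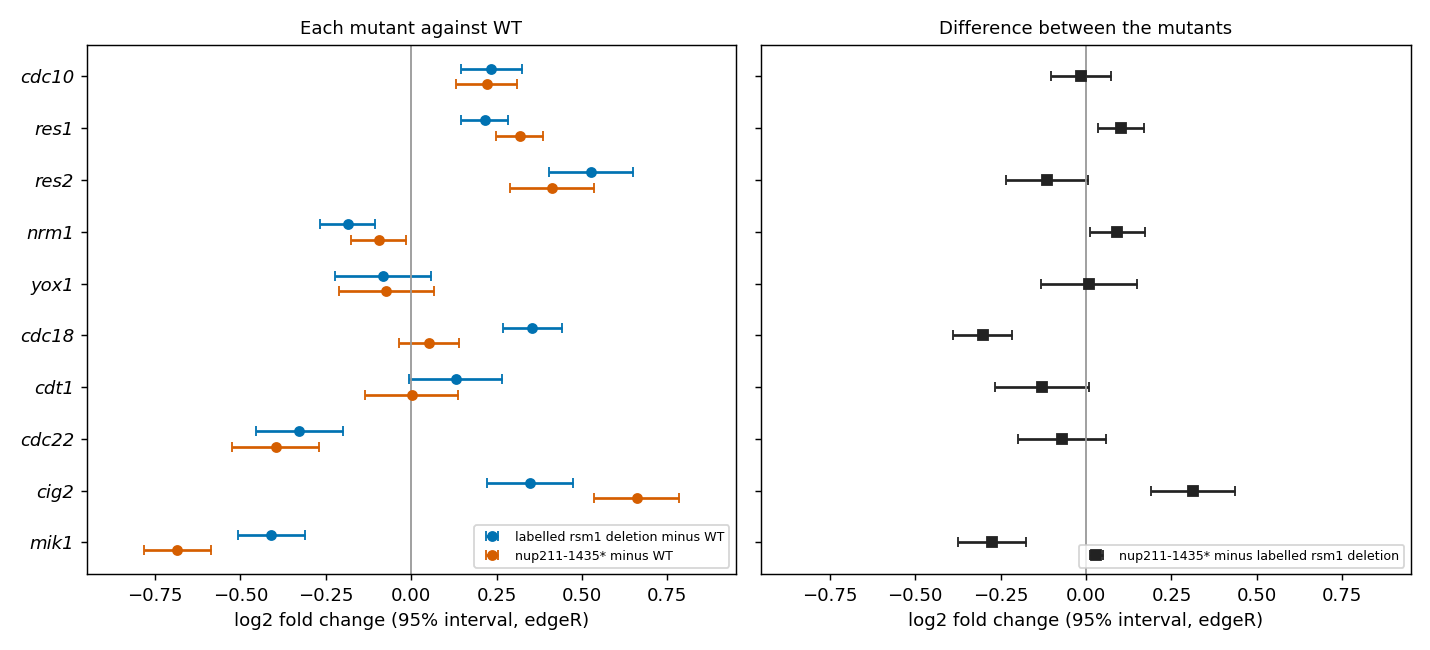
log2 fold changes (horizontal axes) of the 10 genes with 95% intervals from edgeR, for each mutant against WT on the left and for nup211-1435* minus labelled rsm1∆ on the right. On the left the intervals of both mutants lie on the same side of 0, clear of it, for cdc10, res1, res2, nrm1, cdc22, cig2 and mik1. The nrm1 value in nup211-1435* and the yox1 values change sign with total-count scaling. On the right cdc18, cig2 and mik1 lie farthest from 0, at -0.30, 0.31 and -0.28.

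Tested against each other, the mutants differed for 4 of the 10 genes, 2 higher and 2 lower in nup211-1435*, where 50.2% of all features were called (24.5% higher, 25.7% lower). cdc18 was lower in nup211-1435* by 0.30 on the log2 scale (log2 fold change -0.30, SE 0.04, edgeR adjusted p = 2.39e-05), mik1 by 0.28 (log2 fold change -0.28, SE 0.05, edgeR adjusted p = 0.000216), and cig2 was higher by 0.31 (SE 0.06, edgeR adjusted p = 0.000547). res1 was higher by 0.10 (SE 0.03, edgeR adjusted p = 0.0149), and without labelled rsm1∆ replicate 1 its edgeR adjusted p was 0.0503. For 6 genes no difference was called. Their intervals still allowed differences of up to 0.10 in size for cdc10 (-0.10 to 0.07), 0.23 for res2 (-0.23 to 0.01), 0.15 for yox1 (-0.13 to 0.15), 0.27 for cdt1 (-0.27 to 0.01) and 0.20 for cdc22 (-0.20 to 0.06). nrm1 stood at 0.09 (95% interval 0.01 to 0.17, edgeR adjusted p = 0.0574), with an edgeR adjusted p of 0.0332 without WT replicate 2 and 0.0442 without nup211-1435* replicate 1. For cdt1 the edgeR adjusted p was 0.108, and 0.0375 without WT replicate 2. The libraries of the mutants did not overlap for 7 of 10 genes, and the same held for 59.0% of all features. Against WT, they did not overlap for 8 genes in the libraries labelled rsm1∆ and 7 in nup211-1435*, beside 74.1% and 67.8% of all features.

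Levels of different genes were compared as CPM per kilobase of annotated exon. In WT cdc22 stood far above the rest at 276 ± 15.1, followed by yox1 at 51.1 ± 3.31 and nrm1 at 42.6 ± 1.80 (SD, n = 3). The annotated length of yox1 is nearly its coding length, without untranslated regions, so its level per kilobase may be overstated. The annotated exons of cig2 and nrm1 are far longer than their coding parts, at 4381 against 1236 nt and 2640 against 1029 nt. Their levels per kilobase may be understated, and the order of genes depends on these lengths. res1, cdc18 and cdt1 came next at 30.2 ± 0.501, 30.1 ± 0.684 and 28.3 ± 2.91, and their libraries overlapped. Next were mik1 at 23.4 ± 0.418 and cdc10 at 23.3 ± 1.29, also overlapping, and then cig2 at 17.3 ± 0.947. res2 was lowest at 12.8 ± 0.938. cdc22 and yox1 kept the first and second place in both mutants. In the libraries labelled rsm1∆ cdc18 reached 38.5 ± 1.09 and overlapped nrm1 at 37.4 ± 0.766, above res1 at 35.0 ± 0.199. mik1 moved from the seventh place in WT to the last in both mutants, at 17.6 ± 0.968 and 14.6 ± 0.383, and in the libraries labelled rsm1∆ it overlapped res2 at 18.4 ± 0.682. In nup211-1435* cig2, at 27.4 ± 1.96, overlapped cdt1 and cdc10. Summed over the 10 genes, TMM-scaled CPM was 1320.4 ± 55.2 in WT, 1219.6 ± 40.6 in the libraries labelled rsm1∆ and 1197 ± 58.0 in nup211-1435* (SD, n = 3), a sum in which cdc22 has the largest part.

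**Figure D3:**
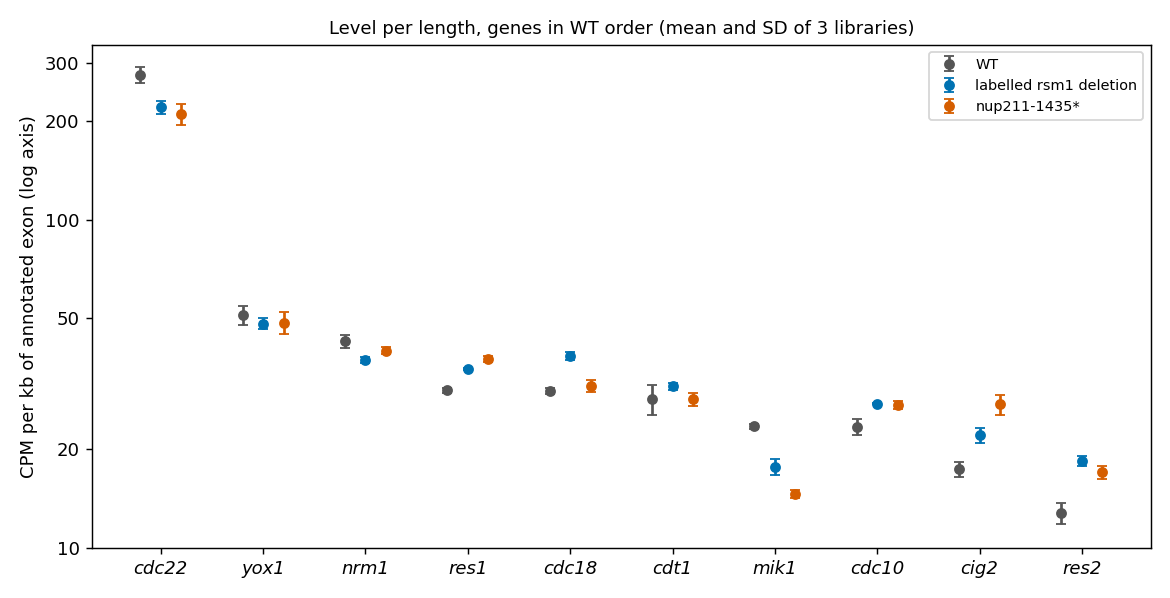
Mean CPM per kilobase of annotated exon (log axis) with SD of 3 libraries for the 10 genes, in WT order from left to right. cdc22 lies at 276 in WT and above 200 in both mutants on average, mik1 goes from 23.4 in WT to 17.6 and 14.6 in the mutants, and cig2 from 17.3 to 22.04 and 27.4.

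Several of these genes lie opposite other transcripts. No annotated feature overlaps any of the 10 on the same strand, and 8 of the 10 have one on the opposite strand in the reference annotation. The strand setting is not stated, and whether reads of a gene and of its opposite-strand partner were counted apart was not tested. In WT cdc18 had 61.1 CPM, and the noncoding RNA SPNCRNA.1495, which shares 724 nt with it, had 3.58 CPM. The overlap with features of the count table is largest for cig2, with 77.9% of its exon, then nrm1 with 54.6%, cdc18 with 35.7%, cdc10 with 15.4% and res1 with 2.89%. It is 1 nt for mik1, and res2, yox1, cdt1 and cdc22 have none. Annotated features outside the count table add to this. With all annotated features, the opposite strand covers 100% of the cdc22 exon, 87.8% of nrm1, 86.6% of mik1 and 84.1% of cdc18. The share is then 77.9% for cig2, 67.0% for res1, 50.7% for cdc10 and 42.2% for res2, and yox1 and cdt1 still have none. Opposite cig2 lie the calcium pump gene pmc1, which was not called in any comparison, and the long noncoding RNA SPNCRNA.846. The latter shares 1954 nt with cig2, its whole exon length, and still had 111 to 307 counts per library.

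SPNCRNA.846 had 5.70, 5.80 and 7.20 CPM in WT, 11.5, 10.8 and 12.8 CPM in the libraries labelled rsm1∆, and 7.28, 4.90 and 3.92 CPM in nup211-1435*. The libraries labelled rsm1∆ were above all others, and WT and nup211-1435* overlapped. It rose in the libraries labelled rsm1∆ (log2 fold change 0.90, SE 0.18, edgeR adjusted p = 0.000681) and was lower in nup211-1435* than there (log2 fold change -1.13, SE 0.18, edgeR adjusted p = 0.000291). In nup211-1435* against WT its log2 fold change was -0.23 (95% interval -0.65 to 0.20, edgeR adjusted p = 0.323), while cig2 was highest in that group. The noncoding RNA opposite cdc18, SPNCRNA.1495 (named for its position), was at 3.58 ± 0.401 CPM in WT, 4.23 ± 0.469 CPM in the libraries labelled rsm1∆ and 3.87 ± 0.603 CPM in nup211-1435* (SD, n = 3) and was not called in any comparison. The gene overlapping nrm1, tad1 (likewise named for its position), was not called either. Of 26 tested features that overlap one of the 10 genes or lie next to it, 14 were called in each mutant against WT, beside 70.7% and 64.9% of all features.

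**Figure D4:**
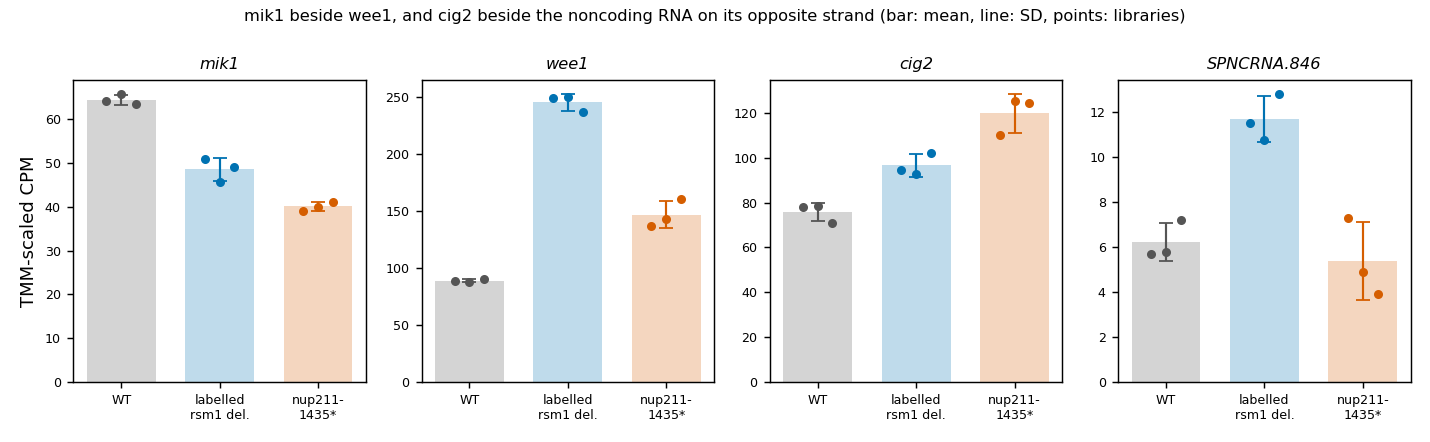
TMM-scaled CPM (vertical axes, each from 0) of mik1 and wee1, and of cig2 and the noncoding RNA SPNCRNA.846 on its opposite strand, with bars for the mean, lines for the SD and points for libraries. mik1 is lower and wee1 higher in all 6 mutant libraries than in WT, and SPNCRNA.846 is high in the libraries labelled rsm1∆ while cig2 is highest in nup211-1435*.

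As a description over the 9 libraries, which share depth and group, res1 and mik1 were the most opposed of the 10 genes (Pearson r of log2 CPM -0.974), and res1 and cig2 the most alike (r = 0.95). After the group means were removed, res1 and mik1 had r = 0.0762, whereas cdc22 and cig2 had r = 0.95, res2 and cig2 0.90, and res2 and cdc22 0.891, so the latter moved together between replicates of a group. Among 6226 other features, the one most like mik1 was the ubiquitin protease gene ubp3 (r = 0.995), and for cig2 it was gto1 (r = 0.991). For cdc22 it was aim21 (r = 0.991), for res1 SPBC887.12 (r = 0.994), for res2 slm5 (r = 0.991) and for cdc18 cnt6 (r = 0.988). For cdc10 it was pof14 (r = 0.979), for nrm1 ksh1 (r = 0.975), for cdt1 SPNCRNA.1654 (r = 0.915) and for yox1 cqd2 (r = 0.878). With 3 groups such values were common for some of the genes. An r over 0.95 was held by 204 features with res1, 180 with res2, 165 with mik1, 91 with cdc18 and 71 with cig2. Fewer reached it with cdc10 (39), cdc22 (13) and nrm1 (12), and 0 with cdt1 and yox1.

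Among 15 further genes known as MBF targets, 3 rose, 8 fell and 4 were not called in the libraries labelled rsm1∆, with a median log2 fold change of -0.12. That was 73.3% called, near the 70.7% of all features (36.7% higher, 34.1% lower; median 0.01). dut1, the dUTPase gene, fell from 76.8 ± 2.59 to 57.3 ± 4.74 CPM (log2 fold change -0.42, SE 0.06, edgeR adjusted p = 3.35e-05). rep2, which encodes an MBF activator, fell from 89.6 ± 2.79 to 68.9 ± 2.104 CPM (log2 fold change -0.38, SE 0.04, edgeR adjusted p = 4.05e-07). The cohesin subunit gene psm3 rose from 115 ± 5.74 to 151 ± 3.81 CPM (log2 fold change 0.40, SE 0.04, edgeR adjusted p = 2.26e-07), and the replication checkpoint gene mrc1 from 102 ± 5.10 to 129.7 ± 8.03 CPM (log2 fold change 0.34, SE 0.05, edgeR adjusted p = 5.59e-05; SD, n = 3). Count-table features cover the whole exon length of dut1, psm3 and mrc1 on the opposite strand. These genes still had 1314 to 1974, 2783 to 3982 and 2294 to 3673 counts per library. Whether the overlap affected their values was not tested. With total-count scaling, which shifted all features upward as given above, 6 of the 15 rose and 2 fell. Of the 6227 features tested, 3135 were then called higher and 1394 lower.

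In nup211-1435* 2 of the 15 rose, 7 fell and 6 were not called, with a median of -0.03. That was 60.0% called, beside 64.9% of all features (32.9% higher, 32.0% lower; median 0.01). With total-count scaling, under the same upward shift, 8 rose and 3 fell. Of the 6227 features tested, 3065 were then called higher and 1243 lower. cdt2, the adaptor gene of the ubiquitin ligase that removes Cdt1 and the ribonucleotide reductase inhibitor Spd1 in S phase, had 55.8, 60.2 and 56.2 CPM in WT, 49.4, 47.0 and 48.1 CPM in the libraries labelled rsm1∆, and 29.6, 34.9 and 34.8 CPM in nup211-1435*. The 3 groups did not overlap, and nup211-1435* was lowest. It fell by 0.79 on the log2 scale in nup211-1435* (SE 0.06, edgeR adjusted p = 1.69e-08) and by 0.25 in the libraries labelled rsm1∆ (SE 0.06, edgeR adjusted p = 0.0011). The difference between the mutants was -0.54 (SE 0.06, edgeR adjusted p = 3.89e-06). Count-table features on the same strand overlap 188 nt, or 9.71%, of the cdt2 exon. ams2, a GATA factor gene for histone transcription, was also lower, at 87.3 ± 7.68 against 111 ± 5.13 CPM in WT (log2 fold change -0.34, SE 0.06; 84.9% of its exon overlapped on the opposite strand by count-table features), and dut1 at 59.5 ± 4.10 CPM (log2 fold change -0.37, SE 0.06). eso1, for a cohesin acetyltransferase, was higher, at 101 ± 1.12 against 85.0 ± 4.33 CPM (log2 fold change 0.24, SE 0.04). Between the mutants 2 were higher in nup211-1435*, 4 lower and 9 not called, which was 40.0% called beside 50.2% of all features. With replicate 2 or 3 of either mutant left out, the number higher was 1. Among those called, rep2 was higher by 0.45 (SE 0.04), ams2 was at -0.43 (SE 0.06) and psm3 at -0.34 (SE 0.04).

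Among 19 regulators of Cdc2, of G1/S and of the replication checkpoint, 13 rose, 2 fell and 4 were not called in the libraries labelled rsm1∆, with a median log2 fold change of 0.26. The share called was 78.9% beside 70.7% of all features, of which 36.7% were higher and 34.1% lower. The cyclin gene puc1 rose beside wee1, from 14.1 ± 1.40 to 33.5 ± 0.596 CPM (log2 fold change 1.24, SE 0.07, edgeR adjusted p = 4.10e-10). The checkpoint kinase genes rad3, the ATR orthologue, and cds1 rose by 0.63 (SE 0.04) and 0.52 (SE 0.04) on the log2 scale, from 138 ± 5.21 to 214 ± 12.14 CPM and from 58.7 ± 1.97 to 84.2 ± 3.74 CPM. In nup211-1435* 10 rose, 2 fell and 7 were not called, with a median of 0.11. The share called was 63.2% beside 64.9% of all features, of which 32.9% were higher and 32.0% lower. With the upward shift of total-count scaling 16 rose, and 3065 of the 6227 features tested were called higher. With TMM scaling rad3 rose most in nup211-1435*, to 323 ± 3.89 CPM (log2 fold change 1.23, SE 0.04, edgeR adjusted p = 3.21e-12), followed by pyp3, a phosphatase gene acting on Cdc2, at 92.9 ± 3.61 against 54.2 ± 0.689 CPM (log2 fold change 0.78, SE 0.04), and puc1 at 23.9 ± 0.197 CPM (log2 fold change 0.76, SE 0.07). Opposite-strand features of the count table cover 66.3% of the rad3 exon and 45.4% of the cds1 exon. None of them covers pyp3, but annotated features outside the count table cover 74.5% of its exon on that strand.

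Between the mutants, 3 of the 19 were higher in nup211-1435*, 11 lower and 5 not called, with a median of -0.11. The share called was 73.7% beside 50.2% of all features, of which 24.5% were higher and 25.7% lower. wee1 differed most, at -0.74 (SE 0.05, edgeR adjusted p = 4.38e-08), followed by rad3 at 0.59 (SE 0.04, edgeR adjusted p = 2.75e-08), puc1 at -0.49 (SE 0.06, edgeR adjusted p = 1.52e-05) and spd1, the ribonucleotide reductase inhibitor gene, at -0.47 (SE 0.04, edgeR adjusted p = 2.74e-07). spd1 stood at 144 ± 4.72 CPM in WT, 203 ± 5.56 CPM in the libraries labelled rsm1∆ and 146 ± 7.67 CPM in nup211-1435* (SD, n = 3). Against WT it rose in the libraries labelled rsm1∆ (log2 fold change 0.50, SE 0.04, edgeR adjusted p = 3.24e-08). The Cdc2 phosphatase gene cdc25, chosen for its role after its values were seen, had 59.7 ± 1.29 CPM in WT, 82.8 ± 3.12 CPM in the libraries labelled rsm1∆ and 65.7 ± 3.49 CPM in nup211-1435*. It rose by 0.47 (SE 0.04, edgeR adjusted p = 1.78e-07) and 0.14 (SE 0.04, edgeR adjusted p = 0.0126) on the log2 scale.

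**Figure D5:**
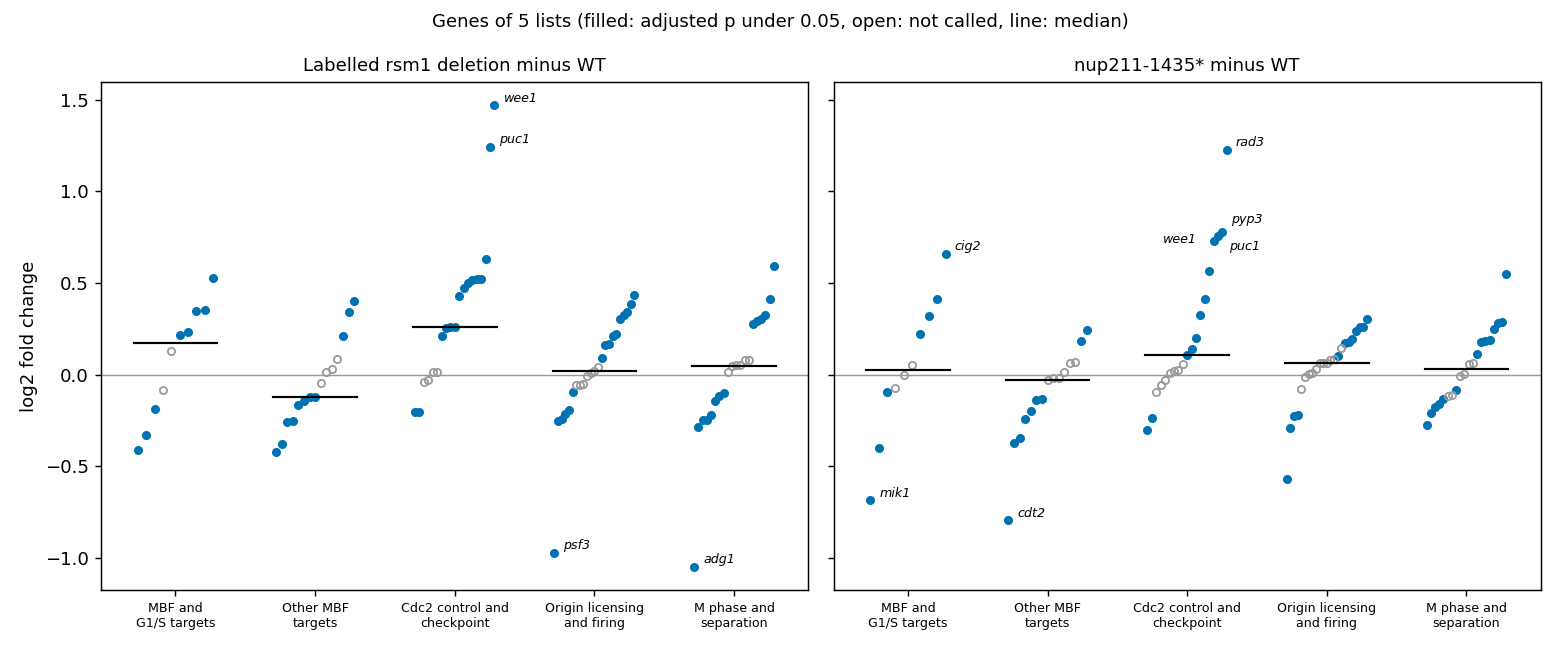
log2 fold changes against WT (vertical axis) of the genes in 5 lists, 1 point a gene, for the libraries labelled rsm1∆ on the left and nup211-1435* on the right, with filled points for genes called at an adjusted p under 0.05 and a line at each list's median. The 10 genes spread to both sides of 0, wee1 and puc1 lie highest on the left at 1.47 and 1.24, rad3 highest on the right at 1.23, and cdt2 lowest there at -0.79.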

How the data were processed

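The authors deposited raw read counts for 6988 features in 9 libraries, whole numbers that were not normalized. They also deposited a table per mutant against WT which, per the file headers, holds mean normalized signal (counts divided by size factors), log2 fold changes with standard errors, a Wald statistic (a score), p-values and adjusted p-values. The submitters' processing notes name HTSeq 0.10.0, HISAT2 2.1.0, DESeq2, SAMtools and the genome build ASM294v2. Which annotation and strand setting were used is not given in the sources used here. The authors' tables were only set beside the values computed from the counts.

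The count table was fitted with edgeR 4.0.16 (R 4.3.3). filterByExpr, at a minimum count of 10 and a minimum total of 15, retained 6227 features, and TMM factors (trimmed mean of M values) scaled the libraries. A robust quasi-likelihood model of all 9 libraries with no covariate gave each two-sided contrast, with Benjamini-Hochberg adjustment over all features tested and calls at an adjusted p under 0.05. The common biological coefficient of variation was 3.95%. Levels are TMM-scaled CPM, and intervals are 95% intervals of the fit. All adjusted p-values are from this test unless named otherwise. The steps were tested on simulated data in which far fewer features changed than were called here. That test therefore does not check the scaling between libraries at the share of calls seen here. Replicates of a group differed by more than sampling noise (chi-square per degree of freedom 2.82 to 12.14). The labels call them biological without saying more, so p-values measure the spread between these samples.

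Exon lengths, gene order and overlaps came from assembly ASM294v3, matched by identifier for 6836 features and by synonym for 12, with 140 unmatched. That build differs from the authors', so no coordinates or sequences are printed, and a planned search for MBF promoter motifs was not run. The genes and lists were chosen with earlier results of these data known. Besides the 10 genes, the text names up to 4 called genes with the largest change per list and comparison, overlapping or neighbouring features called with at least a 2-fold change, and the feature most like each gene by Pearson r of log2(CPM + 0.5). Other names are marked. Alternatives were median-of-ratios size factors, total counts only, no filter, DESeq2 1.42.0, 2-group fits, a replicate block and leaving out each library.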

Additional observations from a re-analysis of the deposited data

Results flagged for a closer look

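For 4 of the 10 genes, the change against WT differed between the mutants in a direct edgeR test of nup211-1435* minus labelled rsm1∆. The log2 difference was 0.10 for res1 (95% interval 0.03 to 0.17, edgeR adjusted p = 0.0149), which rose in both mutants and more in nup211-1435*. Without labelled rsm1∆ replicate 1 the res1 difference was not called (edgeR adjusted p = 0.0503). For cdc18 it was -0.30 (95% interval -0.39 to -0.22, edgeR adjusted p = 2.39e-05), where the rise was called in the libraries labelled rsm1∆ and not in nup211-1435*. For cig2 it was 0.31 (95% interval 0.19 to 0.44, edgeR adjusted p = 0.000547) and for mik1 -0.28 (95% interval -0.38 to -0.17, edgeR adjusted p = 0.000216), both with the larger change against WT in nup211-1435*. All 3 libraries of one mutant lay beyond all 3 of the other for these 4 genes, and the same held for 59.0% of all features. The 4 genes were picked by their call in this test, so this adds no separate support. Among all features 50.2% were called in this comparison.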

How the results depend on the processing

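Of 450 recomputed fold changes of the 10 genes, 420 kept their direction and their side of the threshold. With the direction kept, 8 lost a call and 9 gained one, and 13 changed sign. Among the 13, nrm1 in nup211-1435* with total counts also lost its call (edgeR adjusted p = 0.388). cdc10, res1, res2, cdc22, cig2 and mik1 kept their calls against WT under every alternative run. With total counts only, yox1 turned to 0.0611 in the libraries labelled rsm1∆ and 0.0617 in nup211-1435*, nrm1 turned to 0.0399 in nup211-1435*, and 20 of 23 origin genes were called there in place of 12. For all features that scaling gave 3135 higher and 1394 lower in the libraries labelled rsm1∆ (2284 and 2121 with TMM) and 3065 and 1243 in nup211-1435* (2048 and 1994). cdt1 in nup211-1435*, at 0.00, took values of -0.0041 with median-of-ratios size factors, -0.0010 without a filter, -0.0045 with DESeq2, and, with 1 library left out, from -0.0518 (without WT replicate 3) to 0.0890 (without WT replicate 2). Between the mutants, cdc10 ranged from -0.0343 to 0.0091 and yox1 from -0.0544 to 0.0487 with 1 library left out. The nrm1 call in nup211-1435* was also lost with DESeq2 (adjusted p = 0.0508) and in the 2-group fit (edgeR adjusted p = 0.0584). Between the mutants, nrm1 was called with median-of-ratios size factors (edgeR adjusted p = 0.0483) and, like cdt1, in the 2-group fit (edgeR adjusted p = 0.0306 and 0.0472). The cause of these changes was not tested. Low counts limit the noncoding RNA opposite cig2, SPNCRNA.846, which had 111 to 307 counts per library.

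The replicate numbers gave no strong sign of pairing. Deviations of the 9 same-numbered pairs of libraries correlated at -0.063 to 0.097, and those of differently numbered pairs between groups at -0.130 to 0.063. The highest values, 0.097 and 0.094, joined the mutants' libraries numbered 1 and 3. A weak pairing of the mutants was not tested separately. A fit with the replicate number as a block called 8 and 7 of the 10 genes against WT, as without it, and 4393 and 4057 of all features.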

Other observations

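Of 23 genes for origin recognition, helicase loading and firing, 10 rose, 6 fell and 7 were not called in the libraries labelled rsm1∆ (median log2 fold change 0.02), and 8 rose, 4 fell and 11 were not called in nup211-1435* (median 0.06). The shares called were 69.6% and 52.2%, beside 70.7% and 64.9% of all features. psf3, for a subunit of the GINS complex that activates the helicase, fell from 39.0 ± 2.30 CPM in WT to 19.9 ± 0.678 CPM in the libraries labelled rsm1∆ and 26.2 ± 1.53 CPM in nup211-1435* (SD, n = 3). Its log2 fold changes were -0.97 (SE 0.06, edgeR adjusted p = 2.61e-09) and -0.57 (SE 0.06, edgeR adjusted p = 8.22e-07), and 68.2% of its exon is overlapped on the opposite strand by features of the count table. The replication initiation gene rad4 rose by 0.43 (SE 0.04) and 0.30 (SE 0.04), with 60.8% of its exon overlapped in the same way. In the libraries labelled rsm1∆ mcm10 and drc1 rose by 0.39 (SE 0.05) and 0.34 (SE 0.04), with 99.0% and 25.5% of their exons so overlapped. In nup211-1435* the helicase subunit gene mcm6 rose by 0.26 (SE 0.04) and the origin recognition gene orc2 fell by 0.29 (SE 0.04). Between the mutants mcm6 was higher in nup211-1435* by 0.47 (SE 0.04, edgeR adjusted p = 3.04e-07), cdc45 by 0.33 (SE 0.05) and psf3 by 0.40 (SE 0.06), and the kinase gene hsk1 was at -0.24 (SE 0.05).

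Of 20 genes of the later M-phase and cell separation waves, there were 6 that rose and 8 that fell in the libraries labelled rsm1∆ (median 0.05) and 8 rose and 6 fell in nup211-1435* (median 0.03). In each mutant 70.0% were called, beside 70.7% and 64.9% of all features. Without replicate 2 of the libraries labelled rsm1∆, 5 fell in the former, and with total-count scaling, which shifted all features upward, 12 rose and 2 fell there, while the 6 lower calls of the latter were lost. With that scaling 3135 of the 6227 features tested were called higher and 1394 lower in the libraries labelled rsm1∆, and 3065 and 1243 in nup211-1435*. adg1 fell from 199.6 ± 9.47 CPM in WT to 96.7 ± 5.82 CPM in the libraries labelled rsm1∆ (log2 fold change -1.05, SE 0.08, edgeR adjusted p = 1.48e-06), and was at 165 ± 18.9 CPM in nup211-1435* (log2 fold change -0.27, SE 0.08, edgeR adjusted p = 0.0123; SD, n = 3). The forkhead factor gene sep1 rose by 0.60 (SE 0.04) in the libraries labelled rsm1∆, and the myosin gene myp2 by 0.55 (SE 0.05) in nup211-1435*, with 76.2% of the myp2 exon overlapped on the opposite strand. slp1, for an activator of the anaphase-promoting complex, rose by 0.42 (SE 0.04) and 0.29 (SE 0.04), and mid1, for an anillin-like ring protein, by 0.33 (SE 0.03) and 0.28 (SE 0.03). Between the mutants adg1 was higher in nup211-1435* by 0.77 (SE 0.08) and myp2 by 0.24 (SE 0.05), and fkh2 and sep1 were at -0.45 (SE 0.04) and -0.35 (SE 0.04).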
